A study of Mus musculus with 11 samples.

Results

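The type I interferon-stimulated genes described here are 35 genes, taken by symbol from a list of classic members of this response. All 35 listed symbols were found among the 54513 genes of the count table. All 35 also passed the filter on low counts, which 19267 genes passed in all, so every member was tested. RNA had been sequenced from Percoll-enriched epithelial cells of the mouse colon in 11 libraries of 4 groups. DSS DKO cells (n = 3) came from double knockout (DKO) mice, in which the clusters miR-181a1-b1 and miR-181a2-b2 are deleted, after 2% dextran sulphate sodium (DSS) for 7 days and 2 further days of recovery. DSS WT cells (n = 3) came from wild-type mice given the same DSS course. Baseline DKO (n = 3) and baseline WT (n = 2) cells came from mice of these genotypes without DSS. DSS damages the lining of the colon and is a common way to produce colitis in mice, and Percoll forms density gradients that part epithelial cells from lymphocytes. The labels give no strain, age or sex, no Cre driver, and no number of mice per library.

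Type I interferons signal through the receptor chains IFNAR1 and IFNAR2, and type III interferons, which act mainly on epithelia, through IFNLR1 with IL10RB. Both receptors use the kinases JAK1 and TYK2, which phosphorylate factors such as STAT2, and STAT2 joins IRF9 in the complex ISGF3. ISGF3 binds the interferon-stimulated response element (ISRE) in promoters and raises transcription of genes that sense, bind or degrade viral nucleic acids. Interferon gamma acts through another receptor and the GAS element, and it induces part of the same set of genes. In the gut, a tonic interferon response is known to be present in healthy epithelium.

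RefSeq promoters (GRCm38.p6, 250 bases before to 50 after the transcription start) were given for 25 of the 35 genes. The ISRE core GAAANNGAAA, read on both strands, was present in 12 of these 25 genes (48%), against 1079 of all 27025 genes with a promoter (3.99%). The GAS core TTCNNNGAA, which equals its own reverse complement, was present in 6 of the 25 (24%) and in 2582 of all genes (9.55%). The 12 genes were Isg15, Oas1a, Oas1g, Oas3, Bst2, Stat2, Ddx58, Ifih1, Ifit1, Ifit3, Rsad2 and Eif2ak2. A match is a description of the letters and not a binding site. The stretches below are shown because 5 of them belong to genes that were lower in DSS DKO than in DSS WT cells, and the last 2 to genes that share the motif and did not pass that test. They run 5′ to 3′ on the strand of the gene, with the core, or overlapping cores, in capitals. Their positions are chr4:156200855-156200916 (minus strand) for Isg15, chr8:71537567-71537622 (minus) for Bst2, chr5:120907510-120907565 (minus) for Oas1a and chr5:120887596-120887651 (minus) for Oas1g. The others lie at chr10:128270256-128270305 (plus) for Stat2, chr12:26456543-26456592 (minus) for Rsad2 and chr17:78882525-78882574 (minus) for Eif2ak2. A core written TTTC on the strand of the gene is GAAA on the other strand.
Isg15: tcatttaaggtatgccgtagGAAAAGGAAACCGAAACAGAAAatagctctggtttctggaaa
Bst2: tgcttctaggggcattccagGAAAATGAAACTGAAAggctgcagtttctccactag
Oas1a: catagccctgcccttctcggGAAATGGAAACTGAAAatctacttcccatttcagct
Oas1g: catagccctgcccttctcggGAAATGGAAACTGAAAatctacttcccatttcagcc
Stat2: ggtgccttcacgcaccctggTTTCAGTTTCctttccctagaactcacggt
Rsad2: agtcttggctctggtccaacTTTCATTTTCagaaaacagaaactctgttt
Eif2ak2: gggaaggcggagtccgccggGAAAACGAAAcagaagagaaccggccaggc
The stretches of Isg15, Bst2, Oas1a and Oas1g hold overlapping cores, and those of the neighbouring paralogs Oas1a and Oas1g share all their capitals.

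Libraries had 41631951 to 52761900 counts, of which 41041 to 85173 fell on the 35 genes. Values are CPM, counts of a gene relative to the total of its library, scaled by TMM, which corrects for differences in RNA composition. The epithelial marker Epcam had 1096 to 1293 CPM in DSS DKO, 1337 to 1432 CPM in DSS WT, 1396 to 1669 CPM in baseline DKO and 1204 to 1758 CPM in baseline WT libraries. The microRNAs that the knockout removes are not measured by these messenger RNA libraries, so the genotype labels were not checked by the deleted genes. All 6 DSS libraries had Xist at 633 to 906 CPM and the Y-linked gene Ddx3y at 0.162 to 0.895 CPM, whereas the 5 baseline libraries had Xist at 6.75 to 14.5 CPM and Ddx3y at 42.6 to 54.9 CPM. Sex therefore differed between every DSS and every baseline library, and an effect of DSS and an effect of sex cannot be told apart. The low Y-linked signal also differed between the DSS groups. Ddx3y had 11, 8 and 8 counts in DSS DKO libraries, against 42, 48 and 32 counts in DSS WT libraries. Of 5 sex-linked genes, 4 were lower in DSS DKO than in DSS WT cells by edgeR's test, and the cause was not tested. Baseline DKO replicate 1 stood apart: 23.05% of its counts fell on the ribosomal repeat Rn18s-rs5, against 0.1281% to 8.462% in the others. It was also the highest of all 11 libraries in 23 of the 35 genes, which was so for 6.88% of all genes. The labels call the libraries biological replicates but do not tie each to 1 mouse. The p-values therefore reflect how far these samples spread, which may be partly technical. In bulk RNA, fewer cells of a type and less RNA per cell cannot be told apart.

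Per kilobase of exon, the highest mean levels over all libraries were 33.2 CPM per kb for Oas1a, 30.5 for Ifi27, 26.3 for Irf7 and 25.5 for Trim25. Mx2 with 0.951 and Herc6 with 0.917 CPM per kb had the lowest. Of the 4 group means, the one of DSS DKO cells was the lowest for 29 of the 35 genes and the highest for 0. Baseline DKO cells had the highest mean for 21 genes, DSS WT cells for 10 and baseline WT cells for 4. Summed over the 35 genes, the level was 1210, 1040 and 931 CPM in DSS DKO libraries, 1669, 1503 and 1506 CPM in DSS WT libraries, 2286, 1486 and 1557 CPM in baseline DKO libraries, and 1320 and 1695 CPM in baseline WT libraries. All 3 DSS DKO sums lay below the 8 other sums. Several genes lie side by side in the genome (GENCODE M21, GRCm38). Oas2, Oas3, Oas1g and Oas1a occupy chr5:120730333-120907521, Parp14, Dtx3l and Parp9 chr16:35832874-35972605, and Ifit2, Ifit3 and Ifit1 chr19:34550694-34650009. Reads of near-identical paralogs such as Oas1a and Oas1g could be split between them in counting, and Parp9 and Dtx3l, on opposite strands, overlap in their exons, so these pairs are not independent measurements.

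**Figure D1:**
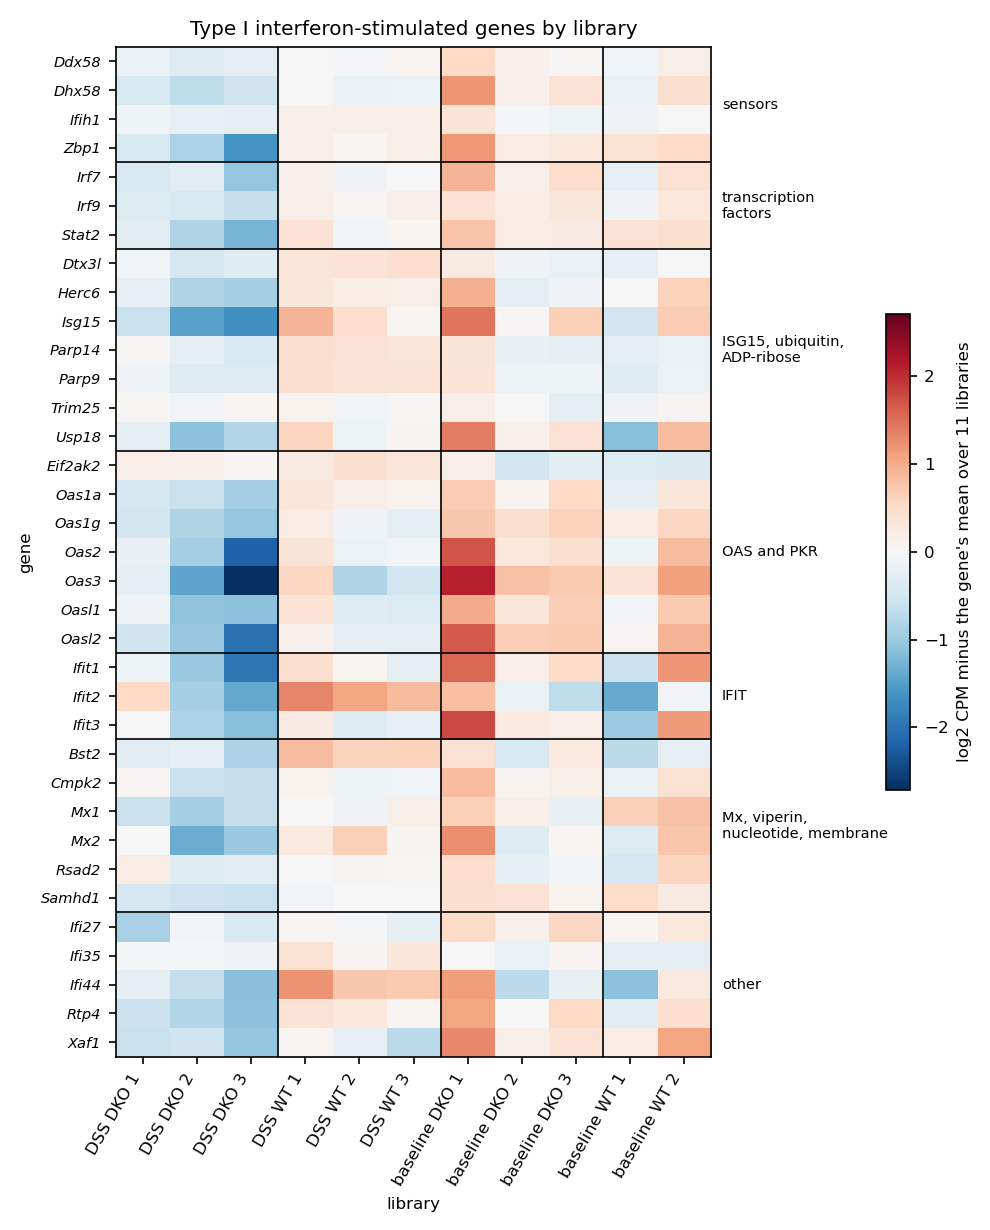
Log2 CPM of each gene in each of the 11 libraries, minus the mean of that gene over the libraries (red above, blue below), with genes grouped by role. The 3 DSS DKO libraries are mostly blue, with DSS DKO replicate 3 the lowest of all libraries in 24 of the 35 genes, and baseline DKO replicate 1 is the highest in 23.

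Interferon-stimulated genes were lower in DSS DKO than in DSS WT cells. Of the 35 genes, 12 were lower and 0 were higher at an adjusted p under 0.05 (quasi-likelihood F-test of edgeR, Benjamini-Hochberg adjusted over 19267 genes). Of all genes tested, 5.98% were lower and 5.26% were higher. All 35 log2 fold changes were below 0, with a median of -0.67, against 0.03 for all genes tested. The 12 lower genes included the antiviral modifier Isg15, the transcription factor genes Stat2 and Irf9, the synthetases Oas1a and Oas1g, the membrane protein gene Bst2 and the neighbours Parp9, Dtx3l and Parp14. In 26 of the 35 genes every DSS DKO library lay below every DSS WT library, which was so for 17.9% of all genes. At an unadjusted p under 0.05, 20 genes were lower and 0 higher, and DESeq2 called 15 lower and 0 higher. Over all 19267 genes tested, 5148 had an unadjusted p under 0.05 in either direction. A DESeq2 count over all genes is not given here for any comparison. The count of 12 depended on single libraries: it was 2 (Bst2 and Irf9) without DSS DKO replicate 2, 6 without DSS DKO replicate 3, and 6, 5 and 4 without DSS WT replicates 1, 2 and 3. It was 24 with no filter on low counts and 0 when a change of at least 1.5-fold was required.

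Among the transcription factors, 2 of 3 genes were lower. Stat2, a subunit of ISGF3, had 47.3, 32.9 and 24.4 CPM in DSS DKO libraries, against 76.3, 54.9 and 60.2 CPM in DSS WT libraries. The groups did not overlap, and the DSS DKO libraries spread over a wide range. The log2 fold change of Stat2 was -0.87 ± 0.23 (SE; edgeR adjusted p = 0.0363), a call lost in 9 of the 20 other settings tried. Irf9, the DNA-binding subunit of ISGF3, had 42.2, 41.1 and 35.5 CPM in DSS DKO libraries, against 61.0, 56.1 and 60.4 CPM in DSS WT libraries. Its libraries lay close together within each group, and its log2 fold change was -0.58 ± 0.12 (SE; edgeR adjusted p = 0.0117). Irf7, which amplifies interferon production, had 69.3, 75.5 and 45.1 CPM in DSS DKO libraries and 101, 88.0 and 94.6 CPM in DSS WT libraries. Although its groups did not overlap, Irf7 did not pass (log2 fold change -0.58 ± 0.23, SE; edgeR adjusted p = 0.142).

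In the system of ISG15, ubiquitin and ADP-ribose, 4 of 7 genes were lower. Isg15, a ubiquitin-like protein that is joined to other proteins and also secreted, had 5.70, 3.10 and 2.72 CPM in DSS DKO libraries, against 16.4, 11.9 and 9.05 CPM in DSS WT libraries. The highest DSS DKO value lay below the lowest DSS WT value, and the log2 fold change was -1.69 ± 0.46 (SE; edgeR adjusted p = 0.0422), the largest decrease among the 35 genes. The Isg15 call was lost in 7 of the 20 other settings. Dtx3l and Parp9 encode a ubiquitin ligase and an ADP-ribosyltransferase that act as a complex. Dtx3l had 66.6, 50.3 and 56.0 CPM in DSS DKO libraries, against 87.9, 91.0 and 95.8 CPM in DSS WT libraries, and Parp9 had 75.3, 63.5 and 63.0 CPM, against 109, 104 and 103 CPM. Both genes thus separated the groups with little spread among DSS WT libraries, at log2 fold changes of -0.67 ± 0.14 for Dtx3l (SE; edgeR adjusted p = 0.0111) and -0.65 ± 0.14 for Parp9 (edgeR adjusted p = 0.0148). Parp14, another ADP-ribosyltransferase, had 103, 85.1 and 75.8 CPM in DSS DKO libraries, against 136, 133 and 127 CPM in DSS WT libraries. Its log2 fold change was -0.59 ± 0.16 (SE; edgeR adjusted p = 0.0344). Trim25, a ubiquitin ligase that activates the sensor RIG-I, was the most abundant member of this role by CPM and had 150, 139 and 151 CPM in DSS DKO libraries, against 157, 139 and 150 CPM in DSS WT libraries. These groups overlapped, and the log2 fold change of Trim25 was -0.02 with a 95% interval of -0.28 to 0.23. Usp18, which removes ISG15 from proteins and restrains the interferon receptor, had a log2 fold change of -0.87 ± 0.50 (SE; edgeR adjusted p = 0.30), and Herc6, the main ISG15 ligase of the mouse, one of -0.85 ± 0.32 (edgeR adjusted p = 0.108).

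Of the 7 genes of the OAS family and PKR, which respond to double-stranded RNA, Oas1a and Oas1g were lower. Both encode oligoadenylate synthetases, whose product activates RNase L. Oas1a had 42.8, 39.4 and 31.7 CPM in DSS DKO libraries, against 74.8, 67.7 and 63.5 CPM in DSS WT libraries, and Oas1g had 17.8, 14.3 and 12.2 CPM, against 29.1, 23.8 and 21.0 CPM. Neither gene overlapped between the groups, and the log2 fold changes were -0.86 ± 0.18 for Oas1a (SE; edgeR adjusted p = 0.0131) and -0.74 ± 0.17 for Oas1g (edgeR adjusted p = 0.0197). Oasl2, the most abundant of the role by CPM, had 51.6, 36.5 and 18.5 CPM in DSS DKO libraries, against 81.6, 62.0 and 62.2 CPM in DSS WT libraries. With its wide spread in DSS DKO libraries, Oasl2 did not pass (log2 fold change -0.95 ± 0.41, SE; edgeR adjusted p = 0.172). Oas2, Oas3 and Oasl1 had log2 fold changes of -0.94, -1.004 and -0.62 and did not pass either, with edgeR adjusted p-values of 0.295, 0.357 and 0.281. Eif2ak2, which encodes the kinase PKR, had 69.4, 68.3 and 63.7 CPM in DSS DKO libraries, against 72.8, 82.8 and 77.3 CPM in DSS WT libraries. Its log2 fold change was -0.21 ± 0.15 (SE; edgeR adjusted p = 0.393).

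Of the 6 genes of the Mx, viperin, nucleotide and membrane group, 3 were lower. Bst2, whose protein tetherin holds budding viruses at the cell surface, had 14.8, 15.1 and 10.1 CPM in DSS DKO libraries, against 32.1, 27.5 and 27.8 CPM in DSS WT libraries. The groups lay far apart, with a log2 fold change of -1.13 ± 0.23 (SE; edgeR adjusted p = 0.0108). Mx1, an antiviral GTPase that is disrupted in many laboratory mouse strains, had 8.23, 6.70 and 7.96 CPM in DSS DKO libraries, against 12.5, 11.7 and 13.9 CPM in DSS WT libraries. Its log2 fold change was -0.73 ± 0.20 (SE; edgeR adjusted p = 0.0348). Samhd1, which hydrolyses the building blocks of DNA, had 66.1, 61.8 and 59.9 CPM in DSS DKO libraries, against 86.7, 91.8 and 90.4 CPM in DSS WT libraries. Both groups of Samhd1 were tight, and the decrease was the smallest of the 12, at -0.52 ± 0.11 on the log2 scale (SE; edgeR adjusted p = 0.0148). Mx2 (log2 fold change -1.004, edgeR adjusted p = 0.21), the viperin gene Rsad2 (-0.16, 0.733) and the mitochondrial nucleotide kinase gene Cmpk2 (-0.33, 0.426) did not pass.

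Of the 4 sensors of viral nucleic acids, 0 were lower by edgeR's test, 2 at an unadjusted p under 0.05, and 1 by DESeq2. Ifih1, which encodes MDA5 and was the most abundant sensor by CPM, had 93.1, 86.0 and 84.6 CPM in DSS DKO libraries, against 111, 114 and 113 CPM in DSS WT libraries. The groups did not overlap, but the log2 fold change of -0.36 ± 0.13 did not pass (SE; edgeR adjusted p = 0.0896). Zbp1, a sensor of Z-form nucleic acid that can start cell death, had a log2 fold change of -0.99 ± 0.30 (SE; edgeR adjusted p = 0.0613). The RIG-I gene Ddx58 had -0.27 (edgeR adjusted p = 0.234) and the LGP2 gene Dhx58 -0.44 (edgeR adjusted p = 0.287). Of the 3 IFIT genes, whose proteins bind foreign RNA ends, 0 were lower by edgeR's test, and 1 was both at an unadjusted p under 0.05 and by DESeq2. Ifit2 had 23.0, 8.51 and 6.12 CPM in DSS DKO libraries, against 39.7, 33.4 and 28.9 CPM in DSS WT libraries. DSS DKO replicate 1 was far above its 2 fellows, and the log2 fold change was -1.43 ± 0.56 (SE; edgeR adjusted p = 0.139). Ifit1 and Ifit3 had log2 fold changes of -0.95 and -0.48 (edgeR adjusted p-values 0.329 and 0.66). In the remaining 5 genes, Rtp4, of a family of receptor transporters, was lower. It had 12.5, 10.8 and 8.64 CPM in DSS DKO libraries, against 24.7, 22.8 and 19.6 CPM in DSS WT libraries. These groups were well apart, with a log2 fold change of -1.07 ± 0.28 (SE; edgeR adjusted p = 0.0301). Ifi27, the most abundant of these 5 by CPM, had 23.6, 40.9 and 32.5 CPM in DSS DKO libraries and 44.9, 42.5 and 36.7 CPM in DSS WT libraries, which overlapped (log2 fold change -0.35, edgeR adjusted p = 0.252). Ifi44 (log2 fold change -1.54 ± 0.50, SE; edgeR adjusted p = 0.0825), Ifi35 (-0.33 ± 0.13; 0.12) and Xaf1 (-0.45 ± 0.34; 0.43) did not pass.

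**Figure D2:**
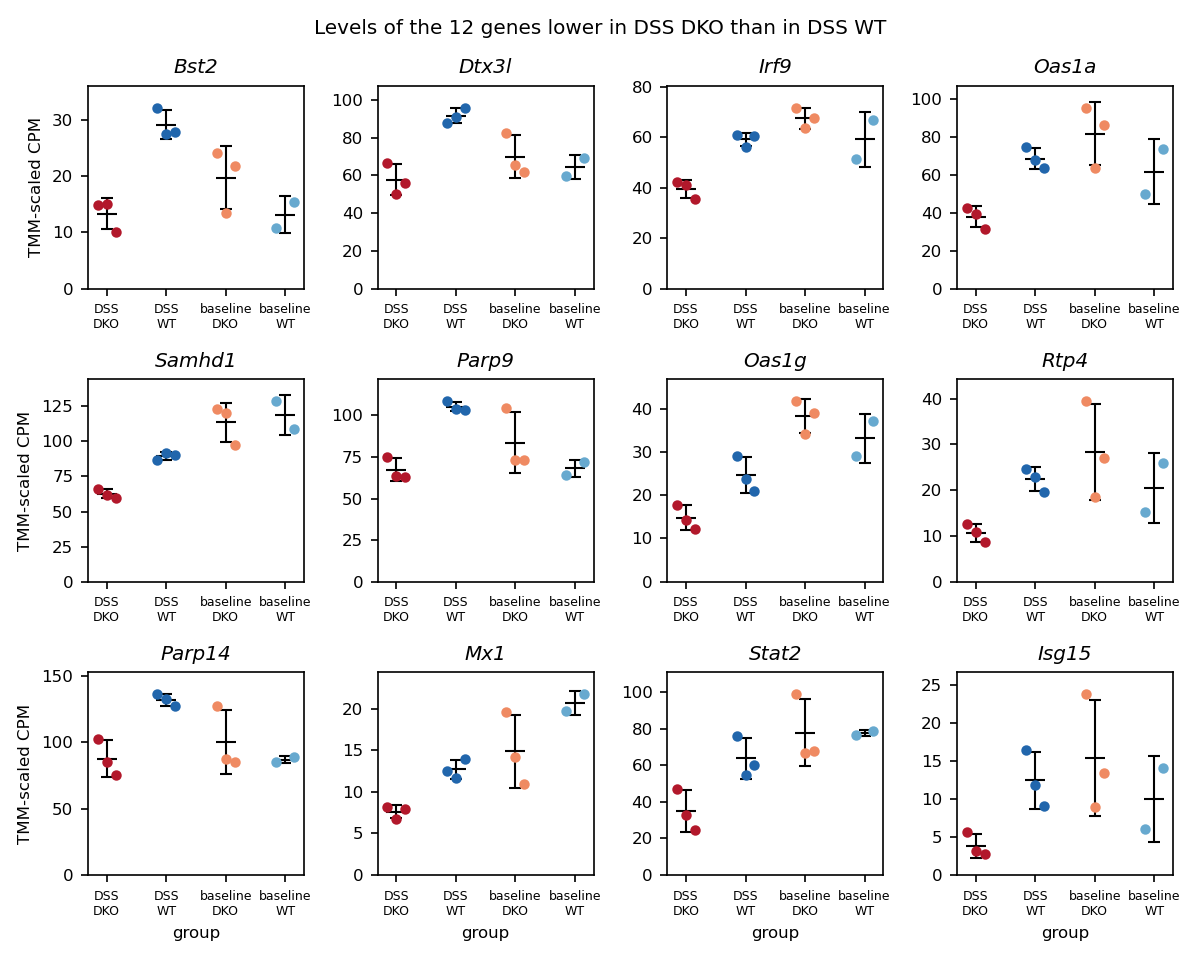
TMM-scaled CPM of the 12 genes that were lower in DSS DKO than in DSS WT cells, for each library (points) of the 4 groups, with group means (short lines) and SDs (error bars); each panel starts at 0. The DSS DKO points lie below the DSS WT points in every panel, from 2.72 to 5.70 against 9.05 to 16.4 CPM for Isg15 and from 59.9 to 66.1 against 86.7 to 91.8 CPM for Samhd1.

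The genes kept a common order within groups. DSS DKO replicate 1 was the highest DSS DKO library in 30 of the 35 genes (41.5% of all genes), and replicate 3 was the lowest in 26 (38.4% of all genes). DSS WT replicate 1 was the highest of its group in 26 (38.4% of all genes). The highest library of a group divided by its lowest had a median over the 35 genes of 1.497 in DSS DKO, 1.19 in DSS WT, 1.703 in baseline DKO and 1.502 in baseline WT. The same median over all genes compared was 1.31, 1.17, 1.21 and 1.15 in these groups. In baseline DKO, 33 of the 35 genes varied more than that median, and in DSS WT 21 did.

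At baseline, 0 of the 35 genes were higher and 0 lower in DKO than in WT cells by edgeR's test. Of all genes tested, 0.0104% were higher and 0.0156% were lower, and 751 of 19267 had an unadjusted p under 0.05 in either direction. At an unadjusted p under 0.05, 1 gene was higher (Bst2, log2 fold change 0.59 ± 0.26, SE) and 1 was lower (Mx1, -0.48 ± 0.22), both with an edgeR adjusted p of 1, and DESeq2 called 0 genes. Mx1 had 19.6, 14.2 and 10.9 CPM in baseline DKO libraries and 19.7 and 21.8 CPM in baseline WT libraries. Bst2 had 24.0, 13.4 and 21.7 CPM in baseline DKO libraries and 10.8 and 15.4 CPM in baseline WT libraries, which overlapped. Log2 fold changes were above 0 for 31 of the 35 genes, with a median of 0.24. That median was -0.02, 0.38 and 0.33 without baseline DKO replicates 1, 2 and 3, and 0.09 and 0.55 without baseline WT replicates 1 and 2. Isg15 illustrates the spread, with 23.8, 8.91 and 13.5 CPM in baseline DKO libraries and 6.02 and 14.04 CPM in baseline WT libraries. Its log2 fold change was 0.62 with a 95% interval of -0.51 to 1.74, which holds both a decrease and an increase.

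**Figure D3:**
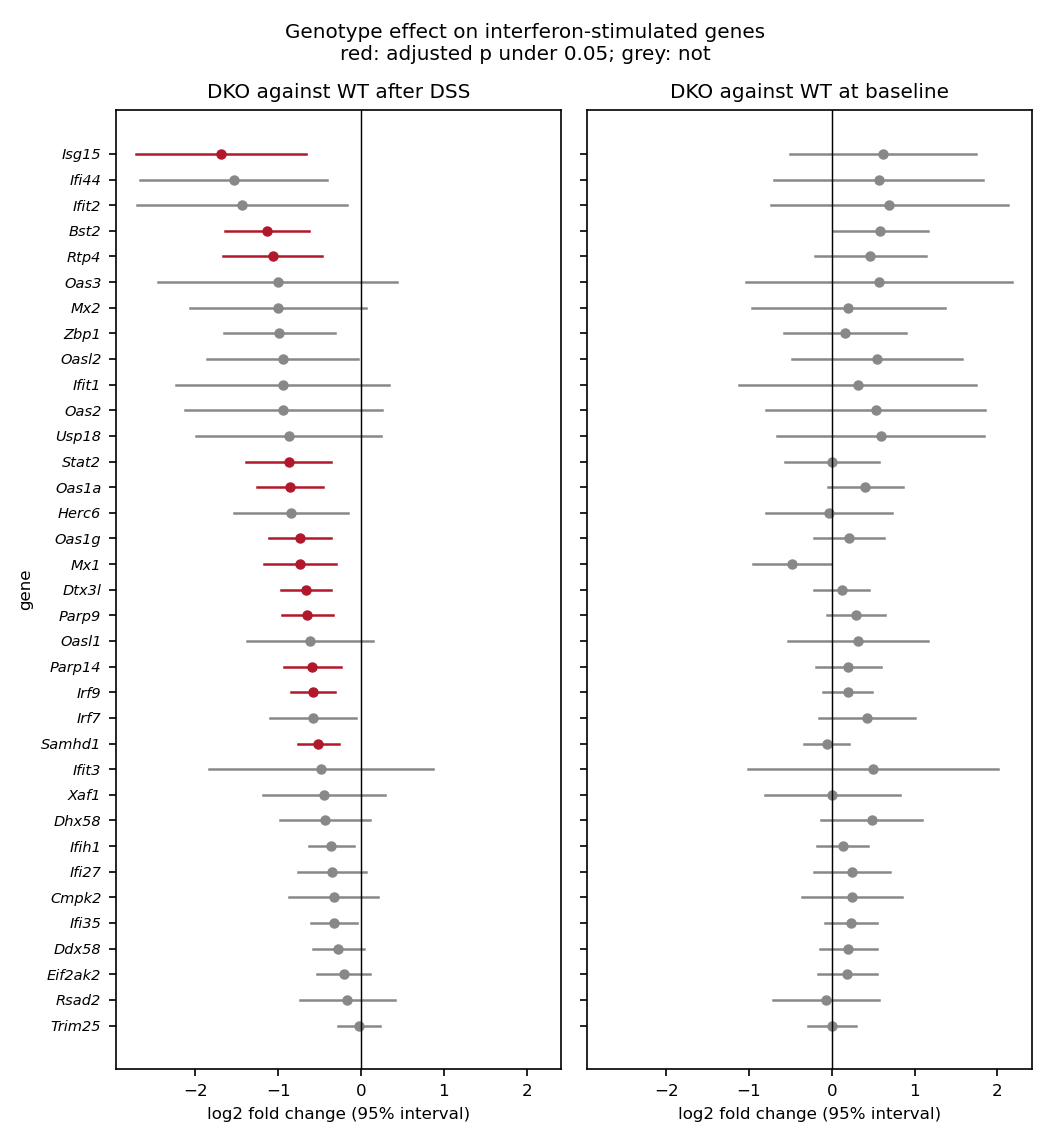
Log2 fold change of each of the 35 genes, with its 95% interval, for DKO against WT after DSS (left) and at baseline (right), in the order of the values after DSS; red marks an edgeR adjusted p under 0.05. After DSS all points lie below 0, from -1.69 for Isg15 to -0.02 for Trim25, and 12 are red; at baseline 31 lie above 0 and 0 are red.

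Set against baseline, interferon-stimulated genes were lower after DSS in DKO cells. In WT cells they were called higher about as often as all genes tested, and lower less often. In DKO cells 19 of the 35 genes were lower and 0 were higher after DSS, where 11% of all genes tested were lower and 12.6% were higher. At an unadjusted p under 0.05, 27 were lower and 0 higher, where 7308 of all 19267 genes had such a p in either direction. DESeq2 called 24 of the 35 lower and 0 higher. The median log2 fold change was -0.96, against 0.01 for all genes. In 22 genes every DSS DKO library lay below every baseline DKO library, which was so for 19.6% of all genes. By role, 3 of 4 sensors (Ddx58, Dhx58 and Zbp1), 3 of 3 transcription factors (Irf7, Irf9 and Stat2) and 6 of 7 OAS and PKR genes (Oas1a, Oas1g, Oas2, Oas3, Oasl1 and Oasl2) were lower. So were Isg15, Mx1, Samhd1, Cmpk2, Rtp4, Ifi27 and Xaf1. Oas3 had the largest decrease, with 15.5, 6.81 and 2.79 CPM in DSS DKO libraries, against 79.4, 31.9 and 29.98 CPM in baseline DKO libraries. Its groups did not overlap, and its log2 fold change was -2.49 ± 0.67 (SE; edgeR adjusted p = 0.0258). With single libraries left out or other settings it ran from -3.29 to -1.88, and the call on Oas3 was lost without baseline DKO replicate 1, without DSS DKO replicate 2 and with a 1.5-fold minimum. Oas1g had the lowest p, with 17.8, 14.3 and 12.2 CPM in DSS DKO libraries, against 41.8, 34.2 and 39.0 CPM in baseline DKO libraries (log2 fold change -1.37 ± 0.18, SE; edgeR adjusted p = 0.000419). Oasl2 had 51.6, 36.5 and 18.5 CPM in DSS DKO libraries, against 238, 118 and 123 CPM in baseline DKO libraries (-2.17 ± 0.42; 0.00649). Samhd1 had a log2 fold change of -0.86 ± 0.11 (SE; edgeR adjusted p = 0.000524), Irf9 of -0.77 ± 0.12 (0.00133), Oas1a of -1.11 ± 0.18 (0.00169), Rtp4 of -1.41 ± 0.28 (0.00473) and Mx1 of -0.96 ± 0.20 (0.00555). Without baseline DKO replicate 1, 14 genes were lower and 1, Eif2ak2, was higher (log2 fold change 0.53, edgeR adjusted p = 0.0152). The 5 genes no longer lower were Oas2, Oas3, Oasl1, Ddx58 and Cmpk2, which left 3 of the 7 OAS and PKR genes (Oas1a, Oas1g and Oasl2) and 2 of the 4 sensors (Dhx58 and Zbp1). Without DSS DKO replicate 2, 13 genes were lower. Sex changed with DSS in this comparison, as above, and its part cannot be told apart.

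In WT cells 6 of the 35 genes were higher and 2 lower after DSS than at baseline, where 16.9% of all genes tested were higher and 16.5% lower. The count of 6 was thus near the share of all genes, and the count of 2 was below it. The median log2 fold change was -0.12. The 6 were Bst2, Eif2ak2, Parp9, Ifi35, Parp14 and Dtx3l, and the 2 were Mx1 and Samhd1. Bst2 had 32.1, 27.5 and 27.8 CPM in DSS WT libraries, against 10.8 and 15.4 CPM in baseline WT libraries. The gap between these groups was wider than the spread within either, and the log2 fold change was 1.15 ± 0.27 (SE; edgeR adjusted p = 0.00722). Eif2ak2 had 72.8, 82.8 and 77.3 CPM in DSS WT libraries, against 47.6 and 46.9 CPM in baseline WT libraries (0.72 ± 0.17; 0.00753). Ifi35 had 29.4, 23.0 and 27.2 CPM in DSS WT libraries, against 18.3 and 18.6 CPM in baseline WT libraries (0.52 ± 0.14; 0.0163). Parp9, Parp14 and Dtx3l, which lie in one cluster on chromosome 16, had log2 fold changes of 0.63 ± 0.16, 0.60 ± 0.18 and 0.51 ± 0.16 (SE; edgeR adjusted p-values 0.0121, 0.0238 and 0.0264). Mx1 fell by 0.71 ± 0.22 on the log2 scale (SE; edgeR adjusted p = 0.0264), to 12.5, 11.7 and 13.9 CPM in DSS WT libraries, against 19.7 and 21.8 CPM in baseline WT libraries. Samhd1 had a log2 fold change of -0.40 ± 0.13 (SE; edgeR adjusted p = 0.0286). Mx1 and Samhd1 were also lower after DSS in DKO cells, in libraries that this comparison does not share. Sex changed with DSS in both comparisons, and its part cannot be told apart. None of the 6 higher genes passed without baseline WT replicate 1, by edgeR's test, and 3 did without DSS WT replicate 3. The 2 lower genes were 0 without DSS WT replicate 2 or without baseline WT replicate 1, and 1 without DSS WT replicate 3 or without baseline WT replicate 2.

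**Figure D4:**
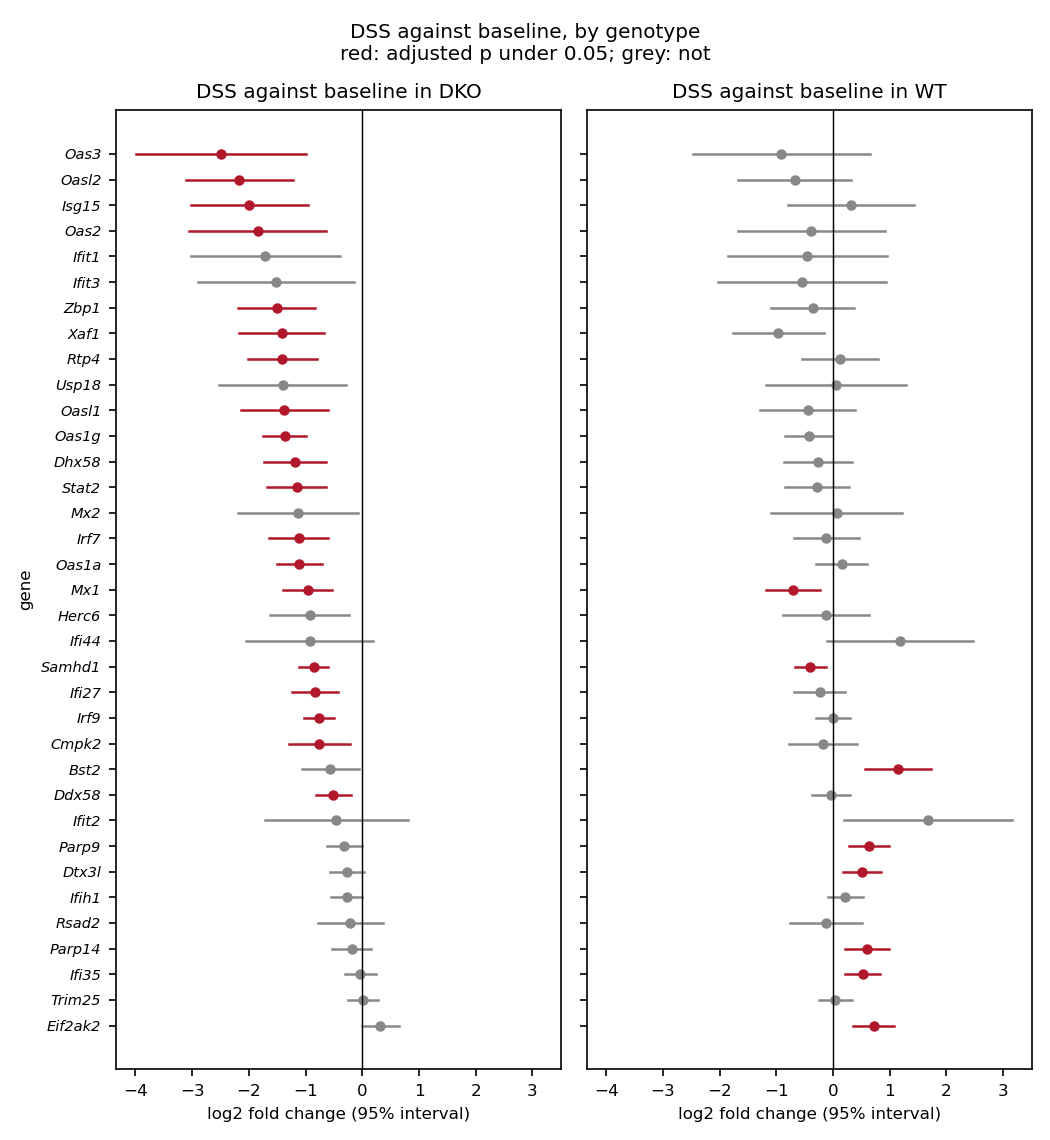
Log2 fold change of each of the 35 genes, with its 95% interval, for DSS against baseline in DKO cells (left) and in WT cells (right), in the order of the values in DKO cells; red marks an edgeR adjusted p under 0.05. In DKO cells 33 points lie below 0 and 19 are red, from -2.49 for Oas3; in WT cells 8 are red, 6 of them above 0.

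The genotype effect itself was compared between DSS and baseline in an interaction term. It passed for 2 of the 35 genes, both more negative after DSS, and for 0 in the other direction, where 0.794% of all genes tested were called lower and 0.773% higher. Bst2 had an interaction of -1.72 ± 0.35 on the log2 scale (SE; edgeR adjusted p = 0.0342), made up of a genotype effect of -1.13 after DSS and of 0.59 at baseline. Oas1a had an interaction of -1.26 ± 0.28 (SE; edgeR adjusted p = 0.0441), from -0.86 after DSS and 0.41 at baseline. Parp9 (-0.94 ± 0.22, SE; edgeR adjusted p = 0.0526), Irf9 (-0.77 ± 0.18; 0.0564), Dtx3l (-0.79 ± 0.21; 0.076) and Rtp4 (-1.54 ± 0.41; 0.0828) came next and did not pass. All 35 interaction terms were below 0, with a median of -0.93, against 0.02 for all genes. For the other 33 genes a difference between the genotype effects was not shown. At an unadjusted p under 0.05, 20 of the 35 genes were lower and 0 higher, where 3636 of all 19267 genes had such a p in either direction. DESeq2 called 10 of the 35 lower and 0 higher. The count of 2 rested on single libraries: it was 11 without DSS DKO replicate 1, 1 without DSS DKO replicate 3, 2 without baseline DKO replicate 2, and 0 without any one of the other libraries. Because DSS libraries had female and baseline libraries male expression, a difference between treatments and a difference between sexes in the genotype effect cannot be told apart.

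The genes upstream of this response were read from the same libraries. Of 20 genes for type I and type III interferons, 0 had enough counts to be tested. Ifnb1, the type I interferon most cells can make, had 0 counts in all 11 libraries, where 3 counts, the limit that a count of 0 allows, would be 0.055 to 0.0929 CPM. Ifnk, an interferon of keratinocytes, had 0 to 6 counts per library. Ifna7 with 7, Ifnl3 with 5 and Ifnl2 with 1 count were seen in baseline WT replicate 1, and Ifna9 and Ifna14 with 2 counts each in baseline DKO replicate 1. Of the 6 receptor genes, Ifngr1, a chain of the interferon gamma receptor, was higher in DSS DKO than in DSS WT cells, with 216, 266 and 277 CPM against 183, 197 and 187 CPM (log2 fold change 0.42 ± 0.12, SE; edgeR adjusted p = 0.0478). That call was lost in 13 of the 20 other settings tried, which included both alternative scalings. Ifnar1 (0.08 ± 0.11; edgeR adjusted p = 0.674), Ifnar2 (0.52 ± 0.29; 0.275) and Ifnlr1 (0.25 ± 0.14; 0.291) did not pass. Irf1, a transcription factor induced mainly by interferon gamma, was lower in DSS DKO than in DSS WT cells. It had 109, 93.8 and 95.6 CPM in DSS DKO libraries, against 150, 161 and 165 CPM in DSS WT libraries. These groups were clearly apart (log2 fold change -0.67 ± 0.12, SE; edgeR adjusted p = 0.00467), and the kinase genes Jak1, Jak2 and Tyk2 did not pass, with log2 fold changes of -0.16, -0.04 and 0.22.

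Ifng, the interferon gamma gene, had 0, 8 and 0 counts in DSS DKO libraries, against 30, 45 and 19 counts in DSS WT libraries, 0, 2 and 10 counts in baseline DKO libraries and 6 and 2 counts in baseline WT libraries. The DSS groups did not overlap, yet Ifng did not pass by edgeR's test (log2 fold change -3.39, edgeR adjusted p = 0.0679), while DESeq2 called it. Of 12 genes that induce interferon and are not members, 1 was lower, the DNA sensor gene Cgas, with 7.81, 5.87 and 6.26 CPM in DSS DKO libraries against 11.2, 8.78 and 11.5 CPM in DSS WT libraries (log2 fold change -0.66 ± 0.17, SE; edgeR adjusted p = 0.0319), a call lost in 6 of the 20 other settings. Of 8 feedback inhibitors, 2 were higher. Socs3, which restrains cytokine receptors, had 51.5, 29.96 and 8.01 CPM in DSS DKO libraries against 8.68, 7.20 and 5.12 CPM in DSS WT libraries, which overlapped (log2 fold change 2.09 ± 0.54, SE; edgeR adjusted p = 0.0382). The Socs3 call was lost in 10 of the 20 other settings, 8 of which leave out a single library, and its log2 fold change ran from 1.44 to 2.54. Axl, a receptor kinase, had 2.68, 5.14 and 4.15 CPM in DSS DKO libraries against 1.76, 1.36 and 0.606 CPM in DSS WT libraries (1.68 ± 0.36; 0.0133), and its call was lost without DSS DKO replicate 2.

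A further 37 interferon-stimulated genes outside the 35 held 5 lower and 0 higher genes in DSS DKO against DSS WT cells. Of all genes tested, 5.98% were lower and 5.26% higher. The median log2 fold change of the 37 was -0.33, with 27 below 0 and 10 above 0, up to 0.76. Ifitm3, which blocks the entry of viruses, had 9.53, 11.8 and 8.28 CPM in DSS DKO libraries, against 21.1, 23.8 and 21.6 CPM in DSS WT libraries. The groups were far apart, at a log2 fold change of -1.16 ± 0.18 (SE; edgeR adjusted p = 0.00255), and the interaction was -1.42 ± 0.27 (edgeR adjusted p = 0.0268). Trim30d (-0.97 ± 0.16; edgeR adjusted p = 0.00358), the antibody receptor gene Trim21 (-0.50 ± 0.12; 0.0206) and the ISG15-conjugating enzyme gene Ube2l6 (-0.79 ± 0.21; 0.0361) were lower as well, as was Ifi203 (-0.93 ± 0.26; 0.0405), chosen after its values were seen, whose call was lost in 11 of the 20 other settings. At an unadjusted p under 0.05, 15 of the 37 were lower and 0 higher, where 5148 of all 19267 genes had such a p in either direction. DESeq2 called 7 of the 37 lower and 0 higher. The count of 5 was 9 without DSS DKO replicate 1, 2 without DSS DKO replicate 2, 3 without DSS DKO replicate 3, and 3, 2 and 2 without DSS WT replicates 1, 2 and 3.

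Markers of other cells changed between the same libraries. Of 12 markers of T cells, intraepithelial lymphocytes and natural killer cells, 10 were lower and 0 higher in DSS DKO than in DSS WT cells. Their summed level was 98.3, 51.2 and 51.5 CPM in DSS DKO libraries, 183, 184 and 171 CPM in DSS WT libraries, 39.6 to 51.9 CPM in baseline DKO libraries and 37.5 and 63.7 CPM in baseline WT libraries. The pan-T-cell marker Cd3e was present in every library, at 0.93 to 1.79 CPM in DSS DKO and 2.40 to 2.72 CPM in DSS WT libraries. The count of 10 was 0 without DSS DKO replicate 2, 6 without DSS DKO replicate 3, and 2 and 4 without DSS WT replicates 2 and 3. Of 8 neutrophil markers 5 were higher, with sums of 158, 222 and 192 CPM in DSS DKO libraries against 58.3, 51.0 and 51.0 CPM in DSS WT libraries. Ly6g had the most counts of the 8 in every library, so the sum mainly follows that gene. The receptor gene Csf3r overlapped, with 112, 51 and 29 counts in DSS DKO against 42, 92 and 118 counts in DSS WT libraries. Of 12 macrophage and dendritic cell markers 1, Cd14, was lower (log2 fold change -0.49 ± 0.14, SE; edgeR adjusted p = 0.0453). The log2 fold change was above 0 for 7 of the 12 and below 0 for 5, with a median of 0.19. The summed level was 78.0 to 114 CPM in DSS DKO and 115 to 136 CPM in DSS WT libraries. Cd14 had the most counts of the 12 in every library, so the sum mainly follows that gene. Of 8 stromal and endothelial markers 3 were higher, while the other 5 had log2 fold changes below 0, and the median was -0.17. Their summed level overlapped, at 219 to 367 CPM in DSS DKO and 286 to 335 CPM in DSS WT libraries. For B and plasma cells, 0 of 5 markers passed by edgeR's test or DESeq2, with 1 lower at an unadjusted p under 0.05. Of 6 plasmacytoid dendritic cell markers 4 were tested (Cox6a2, Pacsin1, Klk1 and Ly6d), and all 4 had log2 fold changes above 0. Of these, 0 passed by edgeR's test or DESeq2, and 1 was higher at an unadjusted p under 0.05. Siglech, the defining marker, was not among the 4. It had 2, 8 and 0 counts in DSS DKO libraries against 13, 11 and 10 counts in DSS WT libraries, and 4 to 8 counts in baseline libraries. Klk1, one of the 4, had 25208 to 77536 counts per library, against 0 to 13 for Siglech. The 4 were therefore not read as a level of plasmacytoid dendritic cells. Of 7 epithelial markers 0 passed by edgeR's test, while 1 was lower at an unadjusted p under 0.05 and by DESeq2. Their summed level was 8676 to 9455 CPM in DSS DKO, 10072 to 10890 CPM in DSS WT, 11685 to 12702 CPM in baseline DKO and 9822 to 10984 CPM in baseline WT libraries. The part of these other cells in the values of the 35 genes was not tested.

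**Figure D5:**
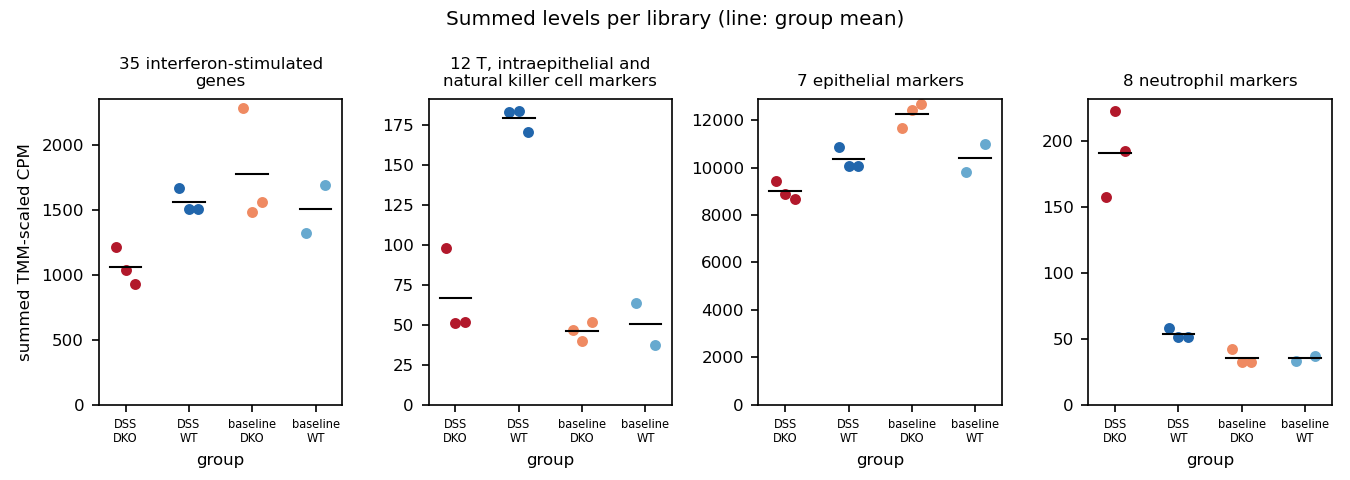
Summed TMM-scaled CPM per library (points; the line is the group mean) of the 35 interferon-stimulated genes, 12 T, intraepithelial and natural killer cell markers, 7 epithelial markers and 8 neutrophil markers; each axis starts at 0. The interferon sums of DSS DKO libraries (931 to 1210 CPM) lie below all others, while the T cell sums of DSS WT libraries (171 to 184 CPM) lie above all others.

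The promoter motif and the microRNA site were set beside the genotype effect as descriptions. The 12 genes with an ISRE core had a median log2 fold change of -0.80 in DSS DKO against DSS WT cells, and 5 of them were lower: Isg15, Bst2, Oas1a, Oas1g and Stat2, whose stretches are printed above. The 13 genes with a promoter and no ISRE core had a median of -0.58, and 3 of them were lower (Irf9, Dtx3l and Samhd1). Over all tested genes, the 473 with an ISRE core had a median of -0.06, with 56 lower and 25 higher, and the 12262 with a promoter and no core had a median of 0.02, with 826 lower and 696 higher. The clusters deleted in DKO mice encode miR-181a and miR-181b, which share their seed, bases 2 to 8, shown in capitals in the RefSeq mature sequences. They are printed because a microRNA represses messages that pair with its seed.
mmu-miR-181a-5p: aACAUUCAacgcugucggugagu
mmu-miR-181b-5p: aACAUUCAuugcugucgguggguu
The seed match TGAATGT was present in the longest annotated 3′ UTR of 6 of 34 genes (17.65%), against 3511 of 19700 genes of the table (17.82%). The 6 were Ifit2, Oas3, Ifi44, Eif2ak2, Cmpk2 and Herc6, none of which passed after DSS by edgeR's test and all of which had log2 fold changes below 0, from -1.54 for Ifi44 to -0.21 for Eif2ak2.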

How the data were processed

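The authors' tools and build, per the submitters' processing notes, include STAR and mm10; the sources used here do not give versions, the read counter, the annotation or the strand setting. Per the labels' protocols, oligo(dT) beads were used to enrich messenger RNA. Values in the deposited table are raw counts, not normalized: all are whole numbers and the libraries differ in their totals. Without the strand setting, reads of overlapping genes cannot be told apart.

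The fit used edgeR 4.0.16 in R 4.3.3, after filterByExpr with a minimum count of 10 and TMM scaling. All 11 libraries entered a single robust quasi-likelihood model in which each group had its own mean (common biological coefficient of variation 0.234). Each of the 5 comparisons was tested by F-test (two-sided), and p-values were adjusted over 19267 genes by Benjamini-Hochberg, with a threshold of 0.05. Standard errors were obtained as the log2 fold change over the root of its F statistic. Libraries of the same group all differed by more than sampling noise (chi-square per degree of freedom 15.9 to 897). The fit was also run on simulated counts, whose outcome is not given here. Those counts were drawn independently for each gene, so they hold no shift that genes of a library share. Floors cover counting error only.

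Alternatives were DESeq2 1.42.0 (size factors, and its Wald test), upper-quartile scaling, no filter, a minimum count of 50, only the groups compared, a replicate block, each library left out, Rn18s-rs5 left out and a minimum change of 1.5-fold. The members, lists and naming rule were chosen with earlier results of these data known. Any of the 35 genes may be named; values per library are given for genes that passed (up to 14 by p after DSS, up to 6 in each other comparison) and for the most abundant of each role, and of other pathway lists up to 4 genes by p are named, with Ifng and Ifnb1. One gene of the pathway lists is not reported here. Positions came from GENCODE M21 (GRCm38), which matched 50671 of 54513 symbols (93%), and promoter and microRNA sequences from RefSeq (GRCm38.p6). Promoters were given for 25 of 35 genes, not for Parp9, Rtp4, Dhx58, Usp18, Oas2, Mx2, Parp14, Mx1, Ifi27 and Zbp1.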

Additional observations from a re-analysis of the deposited data

Results flagged for a closer look

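Genes are given here because the genotype effect itself differed between DSS and baseline in the test of the interaction (quasi-likelihood F-test of edgeR, Benjamini-Hochberg adjusted). Bst2 had an interaction of -1.72 on the log2 scale (edgeR adjusted p = 0.0342) and Oas1a one of -1.26 (edgeR adjusted p = 0.0441). Outside the 35, Ifitm3 had an interaction of -1.42 (edgeR adjusted p = 0.0268). In all 3 genes each DSS DKO library lay below each DSS WT library, which was so for 17.9% of all genes. The 3 genes were picked by a term that uses these same libraries, so this is a description and not separate evidence. The call was lost in 9 of 19 other settings for Bst2, in 11 of 19 for Oas1a and in 8 of 19 for Ifitm3, and it kept its sign in all of them. The DSS libraries were female and the baseline libraries male by Xist and Ddx3y, so the interaction with DSS and with sex cannot be told apart.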

How the results depend on the processing

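Among the called genes for which alternatives were computed, none changed sign; Cd14, Ifitm1, Lgals3bp, Oas1b, Pml, Sp100, Sp110 and Tor3a were not among them. For DKO against WT after DSS, the 12 lower genes became 24 with no filter on low counts and 0 with a 1.5-fold minimum, and 2 to 16 when single libraries were left out. For DSS against baseline in DKO cells, the 19 lower genes became 5 with a 1.5-fold minimum and 13 to 25 with single libraries left out, and the 0 higher genes became 0 to 1. For DSS against baseline in WT cells, the 2 lower genes became 4 with no filter, 0 with a 1.5-fold minimum, 4 with only the groups compared and 0 to 3 with single libraries left out, and the 6 higher genes became 0 with a 1.5-fold minimum and 0 to 7 with single libraries left out. For the interaction, the 2 lower genes became 4 with upper-quartile scaling, 21 with no filter, 0 with a 1.5-fold minimum, 10 with DESeq2 and 0 to 11 with single libraries left out. The causes were not tested. At baseline 0 genes passed in each direction under every alternative. With the replicate number as a block, 13 genes were lower after DSS, 21 were lower in DSS against baseline in DKO cells, 1 was lower and 7 higher in DSS against baseline in WT cells, and 2 were in the interaction, of which 1 was shared with the fit without the block (Oas1a was lost). Over 15 pairs of same-numbered libraries, deviations from the group means had r of -0.0705 to 0.302, with 4 above 0.1. For DSS DKO with DSS WT, r was 0.302, 0.0194 and 0.201 for replicates 1, 2 and 3. Pairs of these groups with unlike numbers had r from -0.303 to 0.157. Whether the numbers pair the DSS samples was thus not settled. Of the 12 genes lower after DSS, Bst2 was lost under the 1.5-fold minimum alone. Oas1a and Dtx3l were also lost without DSS DKO replicate 2, and Irf9 without DSS WT replicate 3. The rest were lost in more of the 20 other settings: Stat2 in 9, Isg15 and Mx1 in 7 each, Oas1g, Rtp4 and Parp14 in 6 each, Samhd1 in 4 and Parp9 in 3. The counts without single libraries for the T cell markers and for the 37 other interferon-stimulated genes were added after seeing the data.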

Other observations

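After DSS, 6 of the 37 interferon-stimulated genes outside the 35 were lower than baseline in both DKO and WT cells, in comparisons that share no library: Lgals3bp, Oas1b, Pml, Sp100, Sp110 and Tor3a. These were 6 of the 14 that were lower in DKO cells and 6 of the 7 that were lower in WT cells, where 11% and 16.5% of all genes tested were lower in DKO and in WT cells. The share of all genes tested that was lower in both was not computed. Both comparisons set female DSS against male baseline libraries, so DSS and sex cannot be told apart in either. The count of 14 was 21 without DSS DKO replicate 1, 8 without DSS DKO replicate 2, 9 without DSS DKO replicate 3 and 8 without baseline DKO replicate 1, and which genes were shared was not recomputed. Ifitm1 was higher in both, with a log2 fold change of 2.39 ± 0.38 in DKO cells (SE; edgeR adjusted p = 0.0013) and 2.41 ± 0.43 in WT cells (edgeR adjusted p = 0.00198). Ifitm1 had 1.67, 2.88 and 2.25 CPM in DSS DKO libraries, against 0.464, 0.460 and 0.369 CPM in baseline DKO libraries, and 1.31, 3.34 and 2.33 CPM in DSS WT libraries, against 0.465 and 0.404 CPM in baseline WT libraries. These genes were chosen after their values were seen.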
